A study of Homo sapiens with 8 samples.

Results

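The genes described here encode the 3 large families of conjugating enzymes of the liver, the UDP-glucuronosyltransferases (UGT), the glutathione S-transferases (GST) and the sulfotransferases (SULT). Membership was set by gene symbol, but the choice was made with earlier results of these data known. Of the 25603 genes with expression values, 36 carried such a symbol, comprising 10 UGT, 17 GST and 9 SULT genes. The GST count includes the 3 microsomal enzymes MGST1, MGST2 and MGST3, which are unrelated in sequence to the soluble GST.

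These enzymes make up much of phase II metabolism, in which a polar group is attached to a drug, toxin, hormone or bile pigment so that it can leave the cell in bile or urine. UGT sit in the endoplasmic reticulum and transfer glucuronic acid from UDP-glucuronic acid, GST attach the tripeptide glutathione to reactive compounds, and cytosolic SULT transfer sulfate from the donor PAPS. Hepatocytes express all 3 families at high levels, and many family members lie side by side in the genome as copies of a common ancestor.

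The cells were HepG2, an established human hepatocarcinoma line, so that a single cell line stands for the hepatocyte. Both groups were grown on gelatin in William E medium containing serum, insulin and dexamethasone, a glucocorticoid. One group received for 4 days the inhibitors UNC1999 and Valmetostat Tosylate (valemetostat), each at 1 µM (EZHi), and the other received DMSO (vehicle, 0.2% per the labels). Both compounds inhibit EZH1 and EZH2, the enzymes of polycomb repressive complex 2 that methylate lysine 27 of histone H3. RNA-seq was performed on 4 libraries per group, and the comparison addresses how expression changes when EZH1/2 are inhibited.

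Expression is given as the deposited log2 values, which are corrected for transcript length, and a level is also given as an estimated FPKM derived from them. A gene was tested when its mean estimated FPKM was at least 0.1, and it is described as called when its limma p, adjusted over the 20153 genes tested, was under 0.05. Of the 36 genes 28 were tested, comprising 5 UGT, 15 GST and 8 SULT. Hepatocyte markers were present at high level, with AFP and ALB at 16100 and 11200 estimated FPKM in vehicle, and the 8 markers summed to 23800 to 46700 in vehicle and 26300 to 42800 in EZHi libraries. AFP was counted among them, although the paper treats it as a progenitor gene. Of the 8 markers, FGB was called (log2 fold change 0.92), and with the replicate number as a block 3 were higher and 1, ALB, was lower. Over all genes tested the block gave 14.9% higher and 15.1% lower. Cholangiocyte markers were also present, summing to 720 to 1130 estimated FPKM in vehicle and 907 to 1230 in EZHi libraries. In vehicle they ranged from 0.747 for KRT7 to 396 for KRT19. Of 5 cholangiocyte markers tested with limma none was called, with 1 at an unadjusted p under 0.05 and 2 called with the block, and CD3E, a T cell gene, was under the filter. The endothelial genes VWF and CDH5 rose (log2 fold changes 1.45 and 2.28) and PECAM1 did not pass the test (0.04), the 3 summing to 2.26 to 2.72 estimated FPKM in vehicle and 3.42 to 7.21 in EZHi, and their part in the results was not tested. COL1A1 and PDGFRB, the stromal markers tested, were not called at unadjusted or adjusted p, while CFTR, PTPRC, CD68, DCN and LUM were not analysed here. In bulk RNA, more or fewer cells of one kind and more or less RNA per cell cannot be told apart.

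Upstream sequences of 6 of the genes are printed, those of 5 genes that rose and of 1 that fell, to show how their CpG content differs. They are RefSeq promoter sequences of GRCh38.p14, read 5′ to 3′ on the strand of the gene. The GSTA1 and GSTA2 stretches run from 250 to 101 bases before the annotated start and the UGT1A1 stretch from 150 to 61 bases before it, whereas those of UGT2B11, SULT1C2 and GSTO1 are the last 150 bases before it. Capitals mark CG, the CpG dinucleotides at which DNA can be methylated. GSTO1, the most abundant of the 36 genes, is shown beside genes of low level.
GSTA1, chr6:52803917-52804066, minus strand: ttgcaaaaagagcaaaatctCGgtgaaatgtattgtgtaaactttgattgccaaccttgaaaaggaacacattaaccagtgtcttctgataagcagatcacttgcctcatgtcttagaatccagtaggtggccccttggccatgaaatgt
GSTA2, chr6:52763576-52763725, minus strand: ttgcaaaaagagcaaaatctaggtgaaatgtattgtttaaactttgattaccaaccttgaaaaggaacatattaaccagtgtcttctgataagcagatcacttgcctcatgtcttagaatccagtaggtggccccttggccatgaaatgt
UGT1A1, chr2:233760120-233760209, plus strand: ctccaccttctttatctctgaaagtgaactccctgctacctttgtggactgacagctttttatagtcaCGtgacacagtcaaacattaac
UGT2B11, chr4:69214749-69214898, minus strand: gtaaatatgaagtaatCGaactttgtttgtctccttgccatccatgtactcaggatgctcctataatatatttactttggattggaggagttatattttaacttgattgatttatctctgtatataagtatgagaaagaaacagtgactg
SULT1C2, chr2:108288745-108288894, plus strand: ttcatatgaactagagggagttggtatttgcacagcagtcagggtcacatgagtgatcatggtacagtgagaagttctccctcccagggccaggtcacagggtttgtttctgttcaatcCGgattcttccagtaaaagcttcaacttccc
GSTO1, chr10:104254742-104254891, plus strand: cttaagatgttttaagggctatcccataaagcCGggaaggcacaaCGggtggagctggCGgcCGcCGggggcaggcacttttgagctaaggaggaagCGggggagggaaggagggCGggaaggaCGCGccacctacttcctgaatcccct

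The GSTA1 and GSTA2 stretches were the same at 146 of 150 positions (97.3%), so they do not count as separate examples. CpG dinucleotides were few in the stretches of the 5 genes that rose (0 in GSTA2 and 1 in each of the others), against 9 in that of GSTO1, which fell, although the stretches differ in length and position. The full promoter windows described below held 4 for GSTA1, 1 for GSTA2, 6 for UGT1A1, 2 for UGT2B11 and 3 for SULT1C2. GSTO1 had 19 there, and those of MGST1, which also fell and is not printed, held 4, 18 and 19. Windows of genes that were not called held 0 to 36.

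In EZHi-treated cells 7 of the 28 genes rose and 2 fell. UGT2B4, GSTA1, SULT1C2, UGT1A1, GSTA2, UGT2B11 and SULT1E1 were higher, by 4.99-fold for UGT2B4 down to 1.31-fold for SULT1E1, and GSTO1 and MGST1 were lower, at 0.715 and 0.75 times the vehicle level. The 7 genes made up 25.0% of those tested, against 8.85% called higher over the whole table, and the 2 lower genes made up 7.14%, against 4.27%. Vehicle and EZHi values stood apart without overlap for these 9 genes, 32.1% of the 28, whereas this held for 18.6% of all genes tested. With the replicate number as a block, which compares libraries of equal number, 11 genes were higher (39.3%, against 14.9% of all genes) and 4 were lower (14.3%, against 15.1%). The share of lower genes was then near that of the whole table. Because the genes were chosen with earlier results of these data known, these shares are descriptive, and their difference from the whole table was not tested.

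**Figure D1:**
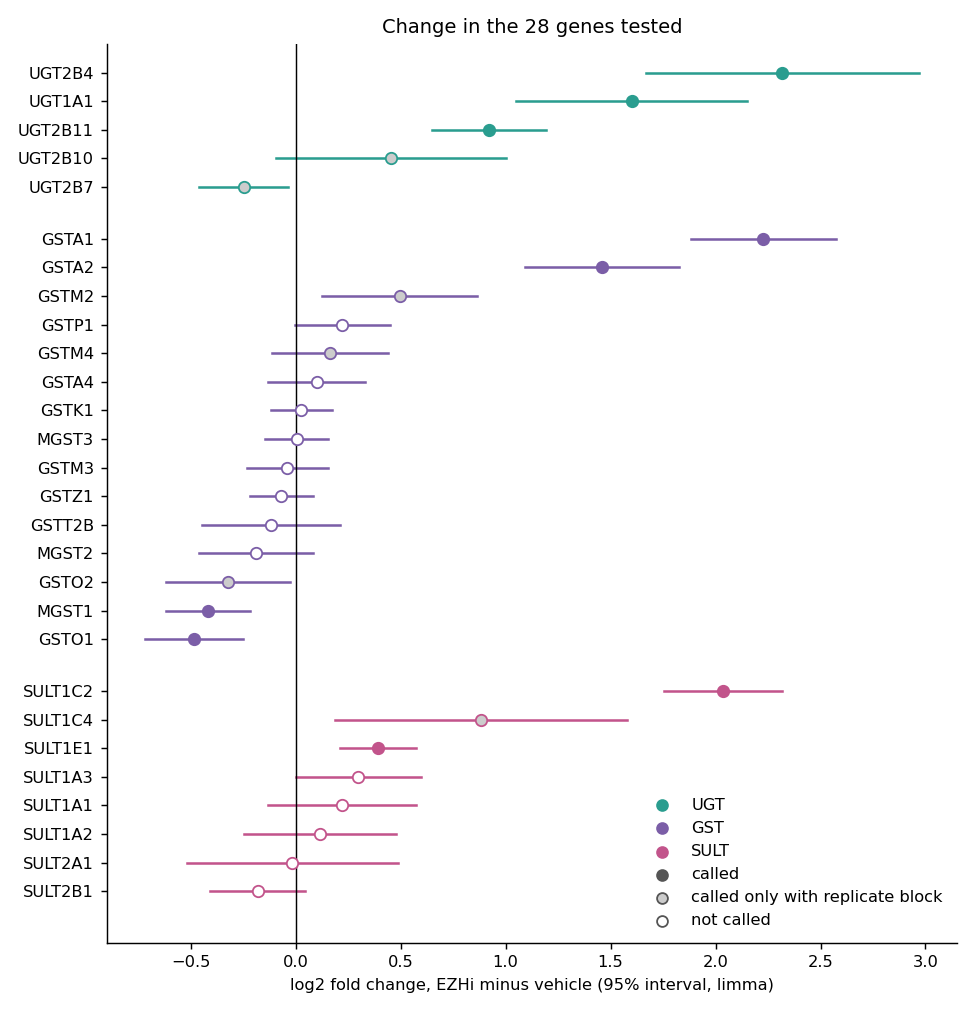
Log2 fold change (EZHi minus vehicle, horizontal axis) of the 28 tested genes with the 95% confidence interval of the limma fit, ordered by size within each family, with called genes filled and genes called only with the replicate block in grey. UGT2B4, GSTA1 and SULT1C2 stand farthest to the right at 2.32, 2.23 and 2.04, and GSTO1 and MGST1 lie to the left of 0 at -0.48 and -0.42.

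The genes that rose and those that fell lay at different levels. The 7 that rose had mean estimated FPKM of 0.274 to 3.41, and of the 12 tested genes at 10 or over limma called 0 higher, with 0 also at an unadjusted p under 0.05 and 1, GSTM4, with the block. Of the 16 tested genes under an estimated FPKM of 10, 7 were called higher (43.8%), against 12.7% of all genes at that level. GSTO1 and MGST1, at 278 and 153, were the most abundant of the 36 genes, and they made up 16.7% of the 12 genes at 10 or over. Among all tested genes at that level, 9.16% were called lower. Before deposit the values had been shrunken by a regularized log, which understates changes at low level and also the spread between libraries there. A pseudocount added to the estimated FPKM makes them smaller still, and with a pseudocount of 1 the log2 fold changes of the 7 genes ran from 0.084 (SULT1E1) to 1.325 (UGT2B4), all of them still called.

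**Figure D2:**
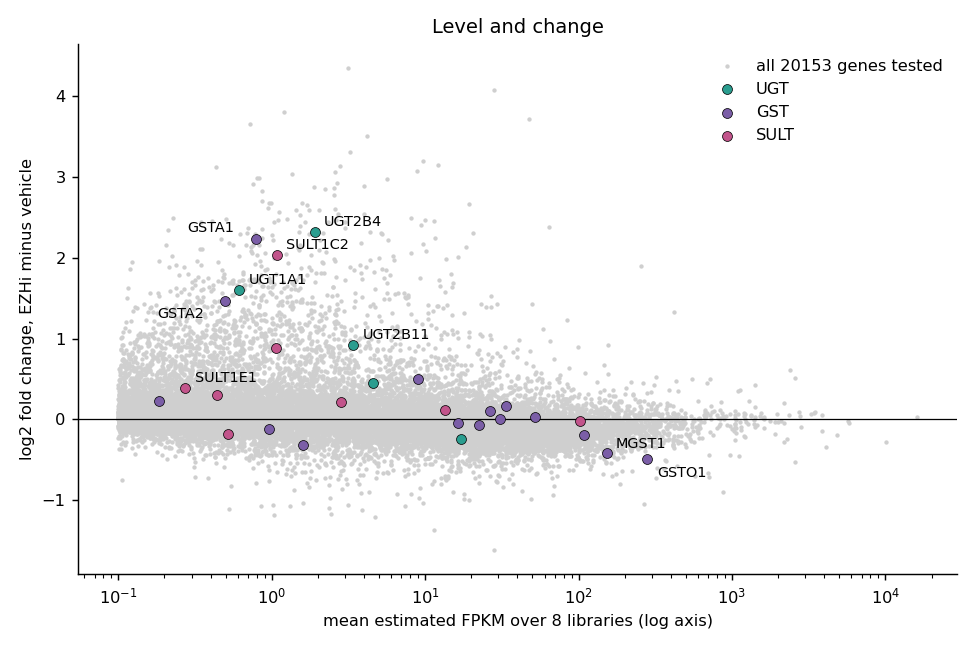
Mean estimated FPKM over the 8 libraries (log axis) against the log2 fold change, for all 20153 genes tested (grey) and the UGT, GST and SULT genes (coloured points, labelled where called). The labelled genes above 0 lie at 0.274 to 3.41 estimated FPKM and the labelled genes under 0 at 153 and 278.

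Levels summed over a family are set mainly by its abundant genes. The 17 GST together held 859, 789, 834 and 742 estimated FPKM in the vehicle libraries and 697, 685, 656 and 621 in the EZHi libraries. Every EZHi library was under the lowest vehicle library, and the mean went from 806 ± 51.7 to 665 ± 33.8 (SD, n = 4), a sum in which GSTO1 and MGST1 weigh most. The 10 UGT summed to 26.0 ± 1.97 in vehicle and 29.7 ± 2.41 in EZHi, with overlapping ranges of 23.6 to 28.5 and 26.3 to 31.8. For the 9 SULT the sums were 123 ± 40.4 and 121 ± 11.1, again overlapping, at 83.8 to 180 and 106 to 134. These sums were not tested.

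Among single genes, the median log2 fold change was 0.92 over the 5 UGT tested, 0.26 over the 8 SULT and 0.005 over the 15 GST, against -0.008 over all genes tested. Of the 28 genes 18 had a positive and 10 a negative value, against 9672 positive and 10481 negative over all genes tested.

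**Figure D3:**
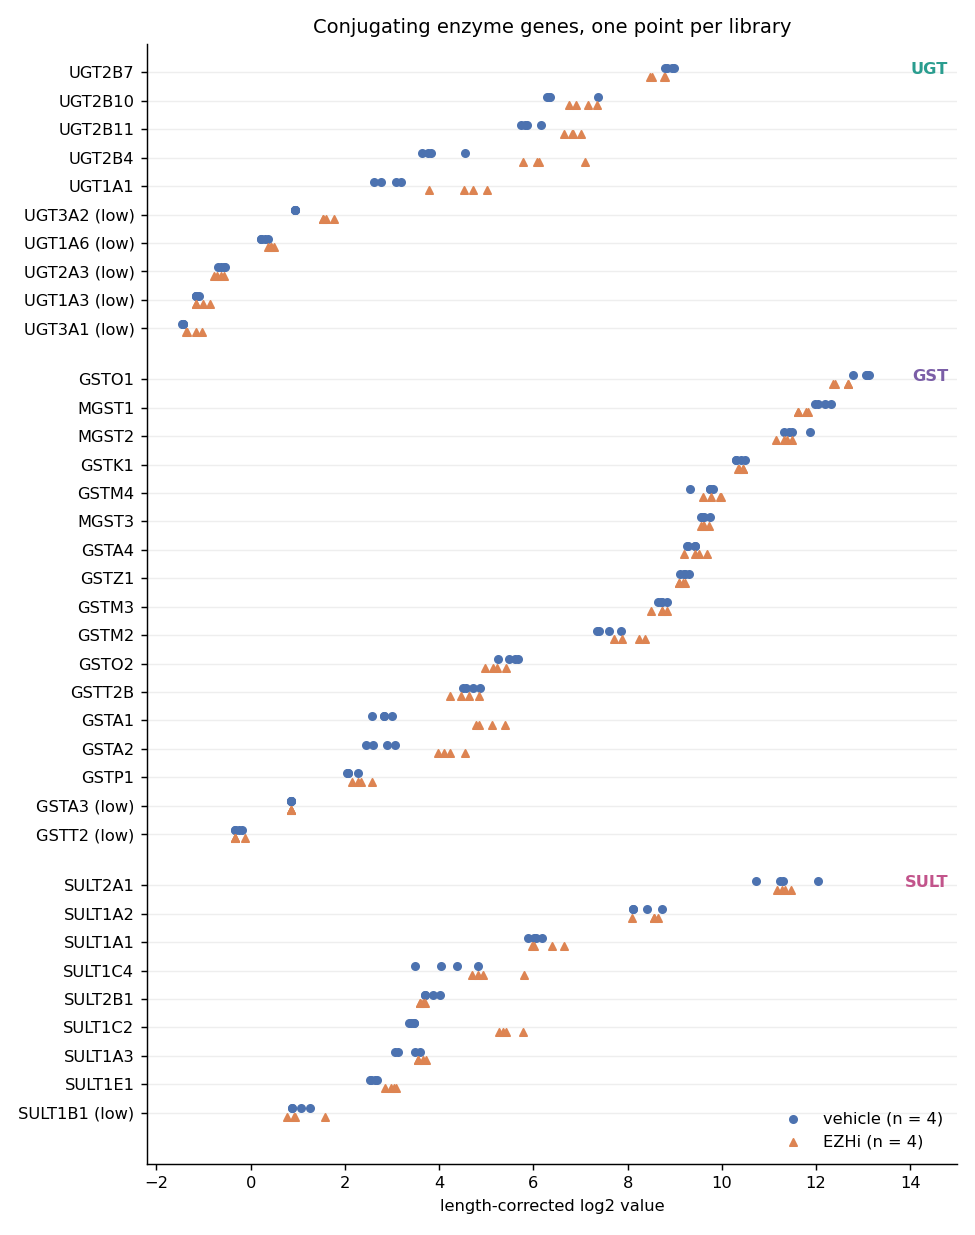
Length-corrected log2 value of each of the 36 genes in the 4 vehicle and 4 EZHi libraries, 1 point per library, grouped by family. GSTO1 lies at the top of the range, between 12.35 and 13.13, and UGT3A1 at the bottom, between -1.45 and -1.04.

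The UGT1 locus on chromosome 2 makes several enzymes by joining alternative first exons to a common set of later exons. UGT1A1 (ENSG00000241635, chr2:233760270-233773300, plus strand, GRCh38) encodes the enzyme that conjugates bilirubin, the pigment left from haem breakdown. Its log2 values were 3.09, 3.18, 2.76 and 2.61 in vehicle replicates 1 to 4 and 4.72, 5.01, 4.53 and 3.78 in EZHi. The groups did not overlap, and replicate 4 was the lowest library in both. The mean rose from 2.91 ± 0.265 to 4.51 ± 0.528, a log2 fold change of 1.60 (SE 0.246, limma adjusted p = 0.00209), and from 0.297 to 0.933 estimated FPKM.

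Of the exonic bases of UGT1A1, 50.1% were also exons of other UGT1A genes in GENCODE release 44. Reads from the common exons cannot be tied to a single UGT1A gene, so that its level is understated. UGT1A6, an enzyme of small planar phenols, and UGT1A3 were under the filter, with mean estimated FPKM of 0.0499 and 0.0182. UGT1A6 stood at 0.37, 0.21, 0.30 and 0.21 in vehicle and 0.43, 0.49, 0.37 and 0.43 in EZHi, and it shared 64.7% of its exonic bases.

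UGT2B genes lie together on chromosome 4, and they encode enzymes of steroids, bile acids and many drugs. The largest change of the 28 genes was that of UGT2B4 (ENSG00000156096, chr4:69480165-69526014, minus strand), a bile acid and steroid enzyme of the liver. It stood at 3.83, 3.77, 4.54 and 3.63 in vehicle and 6.08, 5.77, 7.09 and 6.11 in EZHi, with replicate 3 the highest library in both groups. The groups did not overlap, and each EZHi library exceeded the vehicle library of equal number by 2.00 to 2.54. The fitted log2 fold change was 2.32 (SE 0.290, limma adjusted p = 0.000599), from 0.621 to 3.19 estimated FPKM.

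UGT2B11 (ENSG00000213759, chr4:69199951-69214748, minus strand), a close relative, rose by less and from a higher level. Its values were 5.83, 5.74, 6.17 and 5.87 in vehicle and 6.64, 6.85, 7.0 and 6.82 in EZHi, without overlap. This gave a log2 fold change of 0.92 (SE 0.121, limma adjusted p = 0.000813), from 2.36 to 4.45 estimated FPKM. Of its exonic bases 18.5% overlap the lncRNA ENSG00000250696 on the opposite strand, and counting without strand cannot separate reads there. The log2 fold change of that lncRNA was 0.13 (adjusted p = 0.468).

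UGT2B7, which glucuronidates morphine and many steroids, was the most abundant UGT of the cells and had lower values in EZHi. It stood at 8.95, 8.98, 8.83 and 8.80 in vehicle and 8.80, 8.78, 8.48 and 8.51 in EZHi, lower in 4 of 4 pairs of equal number. Limma gave a log2 fold change of -0.25 (SE 0.094), with a limma adjusted p of 0.124 that became 0.00944 with the replicate block. In estimated FPKM it was at 18.6 in vehicle and 15.7 in EZHi, against 3.19 for UGT2B4 in EZHi.

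UGT2B10, known for N-glucuronidation of nicotine and tertiary amines, depended on 1 library. Vehicle replicates stood at 6.33, 6.35, 7.38 and 6.28, and EZHi replicates at 7.16, 6.90, 7.34 and 6.75, so that the groups overlapped through vehicle replicate 3, which was also the highest vehicle library for UGT2B4, UGT2B11 and ALB. The fitted log2 fold change was 0.45 (95% confidence interval -0.09 to 1.00), with a limma adjusted p of 0.278. It was 0.0259 with the replicate block and 0.012 without vehicle replicate 3, where the log2 fold change was 0.72. UGT2A3, at a mean of 0.0251 estimated FPKM, was under the filter.

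The UGT3 enzymes use sugars other than glucuronic acid, and both genes were under the filter. UGT3A2 stood at 0.93 to 0.94 in the vehicle libraries, which differed by an SD of 0.004, and at 1.59, 1.54, 1.77 and 1.54 in EZHi. Every EZHi library lay above the vehicle libraries, and without a filter on level the limma log2 fold change was 0.67 (adjusted p = 0.000229). The vehicle level was 0.0747 estimated FPKM. At such levels the regularized log also narrows the spread between libraries, so that a limma p there can be too small. UGT3A1 was at -1.45 to -1.44 in vehicle and at -1.16, -1.04, -1.36 and -1.37 in EZHi (adjusted p = 0.0885 without the filter).

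Alpha-class GST lie in a row on chromosome 6, and GSTA1 and GSTA2 are known as the abundant cytosolic GST of hepatocytes, although both were at low level in these HepG2 cells. GSTA1 (ENSG00000243955, chr6:52791371-52803860, minus strand) stood at 2.82, 2.58, 2.84 and 3.0 in vehicle and 5.13, 4.78, 4.85 and 5.39 in EZHi. Replicate 4 was the highest library and replicate 2 the lowest in both groups, which did not overlap. This gave a log2 fold change of 2.23 (SE 0.154, limma adjusted p = 1.77e-05), from 0.276 to 1.30 estimated FPKM.

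GSTA2 (ENSG00000244067, chr6:52750087-52763475, minus strand) encodes an enzyme that also reduces lipid hydroperoxides. Its values were 3.06, 2.90, 2.45 and 2.60 in vehicle and 3.98, 4.11, 4.22 and 4.54 in EZHi, without overlap. Limma gave a log2 fold change of 1.46 (SE 0.163, limma adjusted p = 0.0003), and the difference within pairs ran from 0.92 to 1.94. Although near-identical upstream, the transcripts of GSTA1 and GSTA2 shared only 5.61% and 5.60% of their stretches of 150 bases, the read length, so that most reads can be told apart.

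GSTA4, which conjugates hydroxynonenal, a product of lipid peroxidation, was the most abundant alpha-class gene. It stood at 9.43, 9.25, 9.44 and 9.28 in vehicle and 9.51, 9.19, 9.68 and 9.42 in EZHi, which overlap. The fitted log2 fold change was 0.10 (95% confidence interval -0.13 to 0.33, limma adjusted p = 0.602), at a mean of 26.5 estimated FPKM. GSTA3, a steroid isomerase, was at 0.86 in each of the 8 libraries and was not tested.

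**Figure D4:**
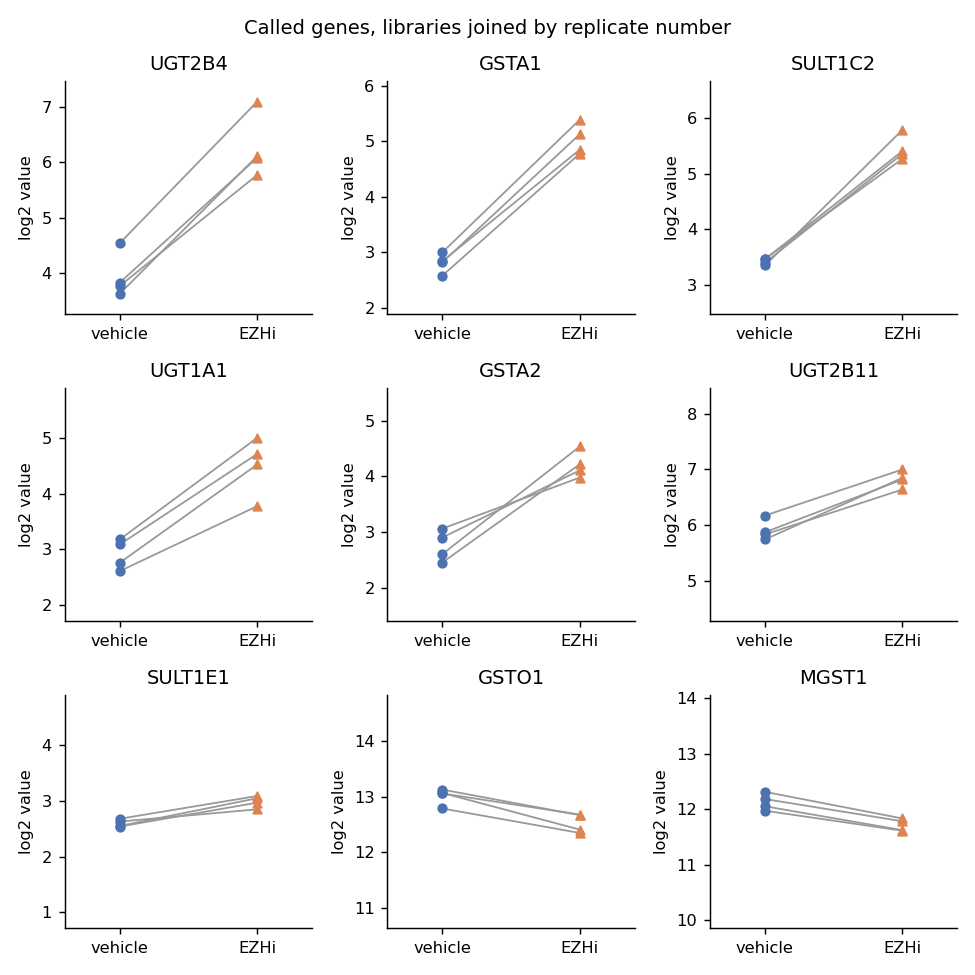
Log2 values of the 9 genes called, 1 panel per gene on axes of equal span, with vehicle (circles) and EZHi (triangles) libraries of equal replicate number joined by a line. The lines of UGT2B4 rise by 2.00 to 2.54 and those of GSTO1 fall, with differences of -0.66 to -0.38.

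The mu-class genes of chromosome 1 conjugate electrophiles such as epoxides. GSTM2 stood at 7.40, 7.35, 7.86 and 7.61 in vehicle and 7.87, 7.72, 8.37 and 8.25 in EZHi, where the ranges overlap but each pair of equal number differed in the same direction, by 0.37 to 0.63. Its log2 fold change of 0.50 (rounded from 0.495, SE 0.165) had a limma adjusted p of 0.0826, and of 0.000665 with the replicate block. Leaving out vehicle replicate 3 gave an adjusted p of 0.042, and leaving out EZHi replicate 2 gave 0.0417. GSTM2 shared 32.4% of its stretches of 150 bases with GSTM1.

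GSTM4, the most abundant of the 3 mu-class genes at 33.8 estimated FPKM, stood at 9.75, 9.33, 9.75 and 9.81 in vehicle and 9.77, 9.59, 9.95 and 9.98 in EZHi. The groups overlapped, and the log2 fold change was 0.16 (SE 0.123, limma adjusted p = 0.455, or 0.045 with the replicate block). GSTM3 had a log2 fold change of -0.04 (limma adjusted p = 0.831).

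The genes that fell, GSTO1 and MGST1, are of different classes. Omega-class GSTO1 (ENSG00000148834, chr10:104235356-104267459, plus strand) acts less as a transferase than as a thioltransferase and reductase, and was the most abundant of all 36 genes. It stood at 13.13, 13.06, 13.07 and 12.79 in vehicle and 12.67, 12.68, 12.41 and 12.35 in EZHi. The EZHi libraries lay under the lowest vehicle library, and replicate 4 was the lowest in both groups. This gave a log2 fold change of -0.48 (SE 0.104, limma adjusted p = 0.0129), from 324 to 232 estimated FPKM.

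GSTO2, the neighbouring dehydroascorbate reductase, was much less abundant, at a mean of 1.61 estimated FPKM. Its values were 5.67, 5.62, 5.25 and 5.49 in vehicle and 5.41, 5.22, 4.98 and 5.15 in EZHi, lower in 4 of 4 pairs although the groups overlapped. Limma gave a log2 fold change of -0.32 (SE 0.132, limma adjusted p = 0.153), and the adjusted p was 0.0302 with the replicate block and 0.0377 after quantile normalization.

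MGST1 (ENSG00000008394, chr12:16347142-16609259, plus strand) is a membrane enzyme with transferase and peroxidase activity. It stood at 12.31, 12.18, 11.97 and 12.05 in vehicle and 11.83, 11.78, 11.61 and 11.62 in EZHi, without overlap. The log2 fold change was -0.42 (SE 0.089, limma adjusted p = 0.0133), from 175 to 131 estimated FPKM, and the adjusted p was 0.0539 after quantile normalization. MGST2, which can make leukotriene C4, had a log2 fold change of -0.19 (limma adjusted p = 0.367), and MGST3 one of 0.005 (0.978).

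The other GST tested were not called. Mitochondrial and peroxisomal GSTK1 (log2 fold change 0.03) and GSTZ1, which acts in tyrosine breakdown (-0.07), were at 52.4 and 22.6 estimated FPKM, and their limma adjusted p values were 0.846 and 0.574. GSTP1, the pi-class enzyme that hepatocytes hardly express, was at 0.184 estimated FPKM with a log2 fold change of 0.22 (limma adjusted p = 0.194). GSTT2B had a log2 fold change of -0.12 (limma adjusted p = 0.677) and GSTT2 was under the filter, and these near-identical genes shared 68.7% and 63.7% of their stretches of 150 bases, so reads cannot be assigned with certainty.

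SULT1C enzymes are known from fetal tissues. SULT1C2 (ENSG00000198203, chr2:108288639-108309915, plus strand) stood at 3.47, 3.46, 3.40 and 3.35 in vehicle and 5.27, 5.41, 5.36 and 5.79 in EZHi, without overlap. The vehicle libraries were close together (SD 0.055) and the EZHi libraries less so (SD 0.228). This gave a log2 fold change of 2.04 (SE 0.125, limma adjusted p = 8.64e-06), the smallest adjusted p of the 28 genes, from 0.418 to 1.73 estimated FPKM.

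SULT1C4, its neighbour, stood at 4.03, 3.49, 4.83 and 4.37 in vehicle and 4.82, 4.70, 5.80 and 4.94 in EZHi. The groups overlapped, replicate 3 was the highest and replicate 2 the lowest in both, and each pair differed in the same direction, by 0.57 to 1.21. The log2 fold change of 0.88 (0.885, SE 0.310) had a limma adjusted p of 0.0979, which was 0.000942 with the replicate block and 0.0393 without vehicle replicate 3.

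SULT1E1, the oestrogen sulfotransferase (ENSG00000109193, chr4:69841212-69860145, minus strand), rose by a small amount from a low level. It stood at 2.55, 2.63, 2.68 and 2.54 in vehicle and 3.05, 2.85, 3.09 and 2.97 in EZHi, without overlap. Limma gave a log2 fold change of 0.39 (SE 0.082, limma adjusted p = 0.0113), from 0.237 to 0.311 estimated FPKM. Quantile normalization gave 0.21 (0.215, adjusted p = 0.115), and 24.1% of its exonic bases were shared with the gene ENSG00000284695.

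SULT2A1, which sulfates dehydroepiandrosterone and bile acids, was the most abundant SULT, at a mean of 102 estimated FPKM. Its values were 11.30, 10.72, 12.03 and 11.24 in vehicle and 11.33, 11.16, 11.47 and 11.27 in EZHi. The EZHi values lay within the vehicle range, whose SD was 0.538 against 0.128 in EZHi. The log2 fold change was -0.015 (95% confidence interval -0.52 to 0.49, limma adjusted p = 0.98), so that the data allow changes within that interval. The sign of the log2 fold change was positive after quantile normalization (0.106) or centring (0.08).

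Phenol and amine sulfotransferases of chromosome 16 include near-identical copies, whose values are uncertain. SULT1A2, the most abundant SULT1 gene, stood at 8.72, 8.42, 8.12 and 8.11 in vehicle and 8.55, 8.09, 8.55 and 8.64 in EZHi, with overlap and a log2 fold change of 0.12 (SE 0.161, limma adjusted p = 0.713). SULT1A1 and SULT1A3 had log2 fold changes of 0.22 and 0.30 (limma adjusted p = 0.423 and 0.187), and 76.8% and 100% of their stretches of 150 bases occurred in another gene. For SULT1A2 38.7% did, all of them in ENSG00000288656, which overlaps its exons. SULT2B1, which sulfates cholesterol, was lower in 4 of 4 pairs by a log2 fold change of -0.18 (limma adjusted p = 0.302), and SULT1B1, a thyroid hormone enzyme, was under the filter at 0.0814 estimated FPKM.

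Within gene clusters, genes called without the block stood beside genes that did not pass that test. Between UGT2B10 and SULT1E1 (chr4:68815994-69860145) the table held 16 genes, 7 of them UGT or SULT. UGT2B4, UGT2B11 and SULT1E1 rose there, UGT2B7 and UGT2B10 did not pass the test, and UGT2A3 and SULT1B1 were under the filter. With the replicate block UGT2B7 was lower (limma adjusted p = 0.00944) and UGT2B10 higher (0.0259). Of the 9 other genes, mostly pseudogenes, 4 were tested, and limma called 0 of them, with 0 also at an unadjusted p under 0.05 and 0 with the block. In the GSTA row (chr6:52750087-52995304) the adjacent GSTA1 and GSTA2 rose and GSTA4 did not pass the test. GSTO1 and GSTO2 had negative log2 fold changes and flank MIR4482 (-0.20, adjusted p = 0.447, or 0.0245 with the replicate block).

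**Figure D5:**
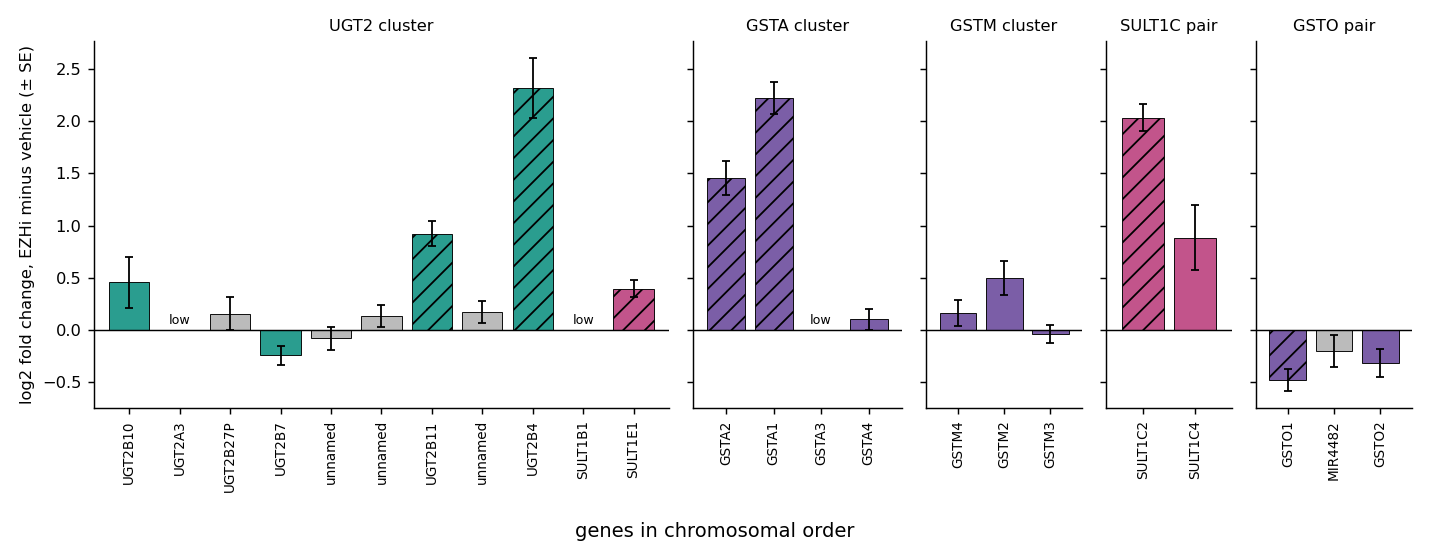
Log2 fold change (EZHi minus vehicle, vertical axis) of genes in 5 clusters, in chromosomal order, as bars with the SE of the limma fit, hatched where called. UGT, GST and SULT genes are coloured, other tested genes are grey, and genes under the filter are marked low. UGT2B4 at 2.32 and UGT2B7 at -0.25 belong to the same cluster, as do GSTA1 at 2.23 and GSTA4 at 0.10.

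Promoters were compared over windows from 250 bases before to 50 bases after the RefSeq start, of which 35 belonged to 30 of the 36 genes. GSTT2, GSTT2B, MGST2, SULT1A1, SULT1A2 and UGT2B4 had no entry. The windows of genes that rose held a median of 2.5 CpG (range 1 to 6), against 14 over all 35116 promoter windows, 14.5 for genes that did not pass the test (0 to 36) and 18.5 for those that fell (4 to 19). There were 6 windows of 6 genes that rose, 16 of 15 that did not pass the test and only 4 of 2 that fell. For the genes that rose the median GC content was 40.8%, against 58.7% over all promoters. Few CpG were not particular to the genes that rose, since the 9 windows of genes under the filter held a median of 2 (0 to 7) at 44.3% GC. By family the medians were 2 for UGT, 3 for SULT and 17 for GST. These are descriptions of sequence, and methylation was not measured.

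Each family depends on its own donor, and genes for the supply, transport and turnover of the donors were examined as lists. These and the later lists were also chosen with earlier results known, so their counts are descriptive. Over all genes tested limma called 8.85% higher and 4.27% lower, or 14.9% and 15.1% with the replicate block. The 5 genes listed for UDP-glucuronic acid supply were UGP2, UGDH and the transporters SLC35D1, SLC35B1 and SLC35A3, not all of which carry UDP-glucuronic acid. All 5 had negative log2 fold changes, and 2 passed the test. Of all 20153 genes tested 10481 had negative values, and at an estimated FPKM of 10 or over 9.16% were called lower. UGDH, which oxidizes UDP-glucose to UDP-glucuronic acid, stood at 13.48, 13.38, 13.23 and 13.19 in vehicle and 12.77, 12.65, 12.51 and 12.44 in EZHi. The groups did not overlap, and the log2 fold change was -0.73 (SE 0.095, limma adjusted p = 0.000756), from 401 to 242 estimated FPKM. UGP2, which makes UDP-glucose, also fell (log2 fold change -0.24, limma adjusted p = 0.0336).

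Of 9 genes listed for sulfate and PAPS, which include the sulfatase activator SUMF1, 1 rose and 1 fell. With the replicate block 3, SUMF1 among them, were higher and 3 lower, against 14.9% and 15.1% of all genes tested. PAPSS2, a PAPS synthase, stood at 2.52, 2.93, 2.76 and 2.91 in vehicle and 3.97, 3.62, 4.03 and 4.36 in EZHi, without overlap (log2 fold change 1.21, SE 0.159, limma adjusted p = 0.000808). It remained far under PAPSS1, the other synthase, at 0.633 against 136 estimated FPKM in EZHi, and PAPSS1 had a log2 fold change of 0.08 (limma adjusted p = 0.446). BPNT1, which degrades the PAP left after sulfation, fell, with a log2 fold change of -0.345 (limma adjusted p = 0.0083).

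Of 11 genes listed for glutathione supply and turnover 2 fell, and 9 had negative values, with a median of -0.24. They were GCLC, the catalytic subunit of the rate-limiting ligase, and GSS, glutathione synthetase, with log2 fold changes of -0.42 and -0.35 (limma adjusted p = 0.0227 and 0.024). With the replicate block 7 of the 11 were lower, among them CHAC2, which degrades glutathione, against 15.1% of all genes tested. Estimated levels summed over the list were 382 to 434 estimated FPKM in vehicle and 311 to 353 in EZHi libraries.

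Among 20 regulators of these enzymes tested, 2 rose and 1 fell. CDX2, an intestinal transcription factor, rose from 0.144 to 0.546 estimated FPKM (log2 fold change 1.91, limma adjusted p = 2.35e-05), and NR1H4, the bile acid receptor FXR, from 9.08 to 18.8 (1.06, 0.00411). FOXA1, a liver pioneer factor, fell (log2 fold change -0.25, limma adjusted p = 0.0125). With the replicate block 4 were higher and 4 lower, against 14.9% and 15.1% of all genes tested. NR1I2 (PXR), NR1I3 (CAR), AHR and NFE2L2 (NRF2), other receptors and sensors known to induce conjugation, did not pass the test without the block. Their log2 fold changes were -0.12, 0.03, 0.10 and -0.26, with limma adjusted p values of 0.734, 0.936, 0.667 and 0.0935. NFE2L2 was lower with the block (adjusted p = 0.00278), in 4 of 4 pairs. HNF4A, a factor of hepatocyte identity, had a log2 fold change of 0.04 (limma adjusted p = 0.85).

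Of 10 efflux transporters tested, not all of them exporters of conjugates, ABCC3, the basolateral exporter of glucuronides, fell (log2 fold change -0.58, limma adjusted p = 0.0041). The canalicular ABCC2, the most abundant at 490 estimated FPKM in vehicle, had a log2 fold change of -0.27 (limma adjusted p = 0.111, or 0.00332 with the replicate block). With the block 2 transporters were higher, ABCB4 among them, and 3 were lower, ABCB1 among them. Of all genes tested 14.9% and 15.1% were, shares that also apply to the lists that follow. A further list held 10 genes that process conjugates or other sulfated molecules. SULF2, an extracellular sulfatase of heparan sulfate and not of small conjugates, rose (log2 fold change 1.41, limma adjusted p = 0.00191). GGT5, which cleaves glutathione conjugates, fell (-1.12, 0.0242), and with the block 4 of the 10 were higher and 1 lower. Of 14 other phase II or hydrolytic enzymes tested, the carboxylesterase CES1 rose by 4.94-fold (log2 fold change 2.30, limma adjusted p = 0.00116), and with the block 5 were higher and 3 lower.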

How the data were processed

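RNA-seq was performed on 8 libraries of HepG2 cells, 4 per group, from mRNA sequenced in pairs of 150 bp, and the sample titles gave group and replicate number. Per the study's methods, the authors mapped reads to hg38 with Hisat2, counted them over exons with HTSeq (union mode, unstranded, alignment quality of at least 10), dropped genes with very few reads, and applied the regularized log of DESeq2 and a correction for mean transcript length. The submitters' processing notes name HISAT2 2.2.1, HTSeq 0.9.1 and DESeq2 1.40.2. The values deposited by the authors are on a log2 scale (-6.81 to 19.01), although the table is named as FPKM. Read depth is unknown, so no counting interval is given. Reads on exons shared by genes are not counted in union mode.

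Of 25604 rows 1 repeated an identifier and was dropped. Genes were matched to GENCODE release 44 (GRCh38), in which 56 genes carry a symbol of the families, and 20 of them were not analysed here. An estimated FPKM is the linear value divided by 25.6, the mean over libraries of summed normalized reads in units of 1000000. Genes at a mean of 0.1 or over were tested with limma 3.58.1 (R 4.3.3; trended prior, group as only term, two-sided, Benjamini-Hochberg adjustment), and count models were not run. The planned log2 transformation was not needed. Tested on simulated data for EZHi against vehicle with 20153 genes, the fit recovered 90 of 100 genes changed by a log2 of 1 and 100 of 100 changed by 2, with 12 false calls. Replicate numbers were taken to pair the libraries, because deviations from the group means correlated across genes within each number (0.31, 0.558, 0.634 and 0.216), against -0.582 to 0.199 between other numbers. The study describes the 4 replicates as biological and independent.

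Values per library are given for genes called with or without the block and for the most abundant gene of each subfamily, and list genes are named where called. Members and lists were chosen with earlier results of these data known, and some list genes are not reported here. Alternatives were other pseudocounts, filters, scalings, prior and block, and leaving out each library. Figures were drawn with Python 3.11.15 (numpy 2.4.6, pandas 2.3.3, matplotlib 3.10.9).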

Additional observations from a re-analysis of the deposited data

Results flagged for a closer look

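In 4 of the 56 groups of 4 libraries formed by the 28 tested genes, 1 library lay apart from the other 3 by more than Dixon's 95% critical value, where chance gives about 1 in 20 groups, or 2.8 here. UGT2B10 was at 7.377 in vehicle replicate 3 and at 6.276 to 6.352 in the other vehicle libraries, and its call depends on that library. GSTM4 was at 9.334 in vehicle replicate 2, against 9.755 to 9.806. GSTP1 was at 2.282 in vehicle replicate 3, against 2.053 to 2.064. SULT1A2 was at 8.089 in EZHi replicate 2, against 8.548 to 8.639. The causes were not tested.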

How the results depend on the processing

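The 18 tested UGT, GST and SULT genes given by library were recomputed under 19 alternatives, and in 314 of 338 combinations of gene and alternative both the sign and the call stayed as reported. With a filter at an estimated FPKM of 1, 5 genes were called and 3 of them higher, since fewer genes were tested. With the replicate block 15 were called, 11 higher and 4 lower, and with the block and centring on genes at 10 or over 16 were called, 14 of them higher. The block added UGT2B10, UGT2B7, GSTM2, GSTM4, GSTO2 and SULT1C4 and changed no other call among these genes. Of all genes tested, 2644 were called, 1579 with the filter at 1, 6051 with the block and 5917 with the block and centring. Leaving out 1 library gave 9 to 12 genes called and 7 to 10 higher, with 10 higher without vehicle replicate 3. SULT2A1 changed sign after quantile normalization (0.106), after centring without and with the block (0.08 in both), and without vehicle replicate 3 (0.22) or EZHi replicate 2 (0.034), where leaving out 1 library gave -0.216 to 0.22. GSTA4 passed the threshold with the block and centring (0.195, adjusted p = 0.0354), and GSTM2 after centring alone (0.59, adjusted p = 0.0495). MGST1 and SULT1E1 lost their calls after quantile normalization. The cause of these changes was not tested. Pseudocounts kept the calls but shrank the changes of low genes by construction, and with a pseudocount of 1 the log2 fold change went from 2.23 to 0.845 for GSTA1, from 1.46 to 0.449 for GSTA2, from 2.04 to 0.94 for SULT1C2, from 1.60 to 0.562 for UGT1A1, from 2.32 to 1.325 for UGT2B4 and from 0.39 to 0.084 for SULT1E1. The median of all genes moved from -0.008 as deposited to -0.06 after quantile normalization and 0.087 after centring, so small changes depend on scaling. Depth is unknown, and low values carry little information.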
